A study of Mus musculus with 45 samples.

Results

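The data concern 32 genes of the ATF4 response to amino acid shortage and endoplasmic reticulum stress, measured by RNA sequencing in cultured mouse forelimb buds exposed to bisphenol AF (BPAF). The genes were chosen by symbol from general knowledge of the pathway, not by a threshold on measured values. Earlier results of these data were known when they were chosen, so the counts below do not test an independent list. All 32 were found among the 35272 genes of the joined tables. BPAF is an analogue of bisphenol A in which the methyl groups between the rings carry fluorine. The buds came from CD1 mouse embryos of gestation day 13, and limbs of both sexes shared glass culture bottles in BGJb-based medium. The groups were 5 µM BPAF, 1 µM BPAF and a control that received the solvent dimethyl sulfoxide (DMSO), each cultured for 3, 24 or 48 h. Each of these 9 groups had 5 libraries, 45 in all. The labels do not say whether replicates came from separate culture days or litters, so p-values measure the spread between these libraries, part of which may be technical.

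ATF4 is a transcription factor whose messenger RNA is translated more when the initiation factor eIF2α is phosphorylated. Separate kinases do this in response to uncharged transfer RNA (Eif2ak4), unfolded protein in the reticulum (Eif2ak3) and other stresses. ATF4 then binds, often with a C/EBP partner, to composite promoter sites of genes that import and synthesise amino acids, restrain growth signalling and, under long stress, promote cell death. In the skeleton ATF4 is known for its part in osteoblast differentiation and in the supply of amino acids for collagen synthesis.

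Promoter sequences are shown first, because ATF4 binds composite sites in promoters of its target genes. The letters TGATGNAA were searched on both strands of RefSeq promoter windows, which run from 250 bases before to 50 bases after each annotated start (300 bases, GRCm38.p6). Of the 32 genes, 27 had an entry, and Slc7a3, Eif4ebp1, Slc1a5, Cth and Slc7a5 are named only. The letters were present in 8 of the 27 genes (29.6%), against 1219 of 27025 genes (4.51%), a gene having 1 or more windows. Of all 32851 windows 3.97% held them. The narrower form TGATGCAA, whose matches are a subset of these, stood in 6 of the 27 genes (22.2%), against 279 of 27025 genes (1.03%). The 8 matches follow 5′ to 3′ on the strand given, with the matched letters in capitals and 11 bases on each side.
Trib3 (chr2:152344028-152344057, plus strand): ccccgcccggcTGATGTAAacctgagctaa
Chac1 (chr2:119351038-119351067, minus strand): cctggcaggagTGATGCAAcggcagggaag
Asns (chr6:7693214-7693243, minus strand): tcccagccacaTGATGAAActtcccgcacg
Pycr1 (chr11:120643833-120643862, minus strand): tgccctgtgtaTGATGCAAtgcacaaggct
Slc1a4 (chr11:20332699-20332728, plus strand): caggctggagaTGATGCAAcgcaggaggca
Atf3 (chr1:191183425-191183454, plus strand): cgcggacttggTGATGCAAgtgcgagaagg
Vldlr (chr19:27216809-27216838, minus strand): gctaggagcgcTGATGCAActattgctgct
Nupr1 (chr7:126625562-126625591, plus strand): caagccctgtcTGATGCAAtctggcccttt
A match describes letters in a window and is not evidence of binding. The genes were chosen for their known place in the ATF4 pathway. A share of matches above that of all genes can follow from this choice and is not independent evidence. Positions from the RefSeq start are those of the first matched base along the strand of the gene. They were -23 in Asns, -103 in Pycr1, -110 in Atf3 and in Nupr1, -193 in Chac1 and -200 in Vldlr. In Slc1a4 the position was -4, so that the match spans the start, and in Trib3 it was 15, after the start. By the gene spans that came with the counts, the Trib3 match lay outside its gene, which starts at 152344032. Those of Asns, Atf3, Nupr1 and Vldlr lay inside. In Asns and Pycr1 the letters read along the gene, and in the other 6 against it. The 250 bases before the start are given for Chac1 and Asns, on the strand of the gene, because these genes are widely used readouts of ATF4. The capitals mark the match, which in Chac1 appears as its reverse complement.
Chac1 (chr2:119350992-119351241, plus strand): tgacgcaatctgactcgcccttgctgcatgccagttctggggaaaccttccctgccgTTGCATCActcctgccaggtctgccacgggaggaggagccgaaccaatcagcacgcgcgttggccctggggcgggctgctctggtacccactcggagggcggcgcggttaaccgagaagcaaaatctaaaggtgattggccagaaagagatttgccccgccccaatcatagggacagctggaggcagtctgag
Asns (chr6:7693210-7693459, minus strand): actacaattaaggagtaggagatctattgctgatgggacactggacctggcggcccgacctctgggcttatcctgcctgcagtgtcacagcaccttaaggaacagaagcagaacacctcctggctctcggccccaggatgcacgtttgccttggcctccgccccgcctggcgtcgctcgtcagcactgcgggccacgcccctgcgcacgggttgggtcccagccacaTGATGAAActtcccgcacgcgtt

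At 48 h the ATF4 genes were higher in limbs at 5 µM BPAF than in controls across most of their roles. Of the 32 genes, 20 rose and none fell. Here rose and fell mean a difference called by edgeR's quasi-likelihood test at a Benjamini-Hochberg adjusted p under 0.05 over all genes that passed a filter on low counts, and all 32 genes passed it. Across all 16345 genes tested in this comparison 2.74% were called higher, 4.42% lower and 7.16% in either direction. The median log2 fold change of the 32 genes was 0.37, with 30 of 32 above 0, while the median of all genes was -0.00. By role, 5 of 7 transcription factors rose, as did 4 of 7 stress regulators, 6 of 8 amino acid transporters, 1 of 6 serine and one-carbon enzymes and all 4 other amino acid enzymes. Levels below are read counts in CPM, relative to library size, scaled by TMM, a correction for library composition, over all 45 libraries.

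**Figure D1:**
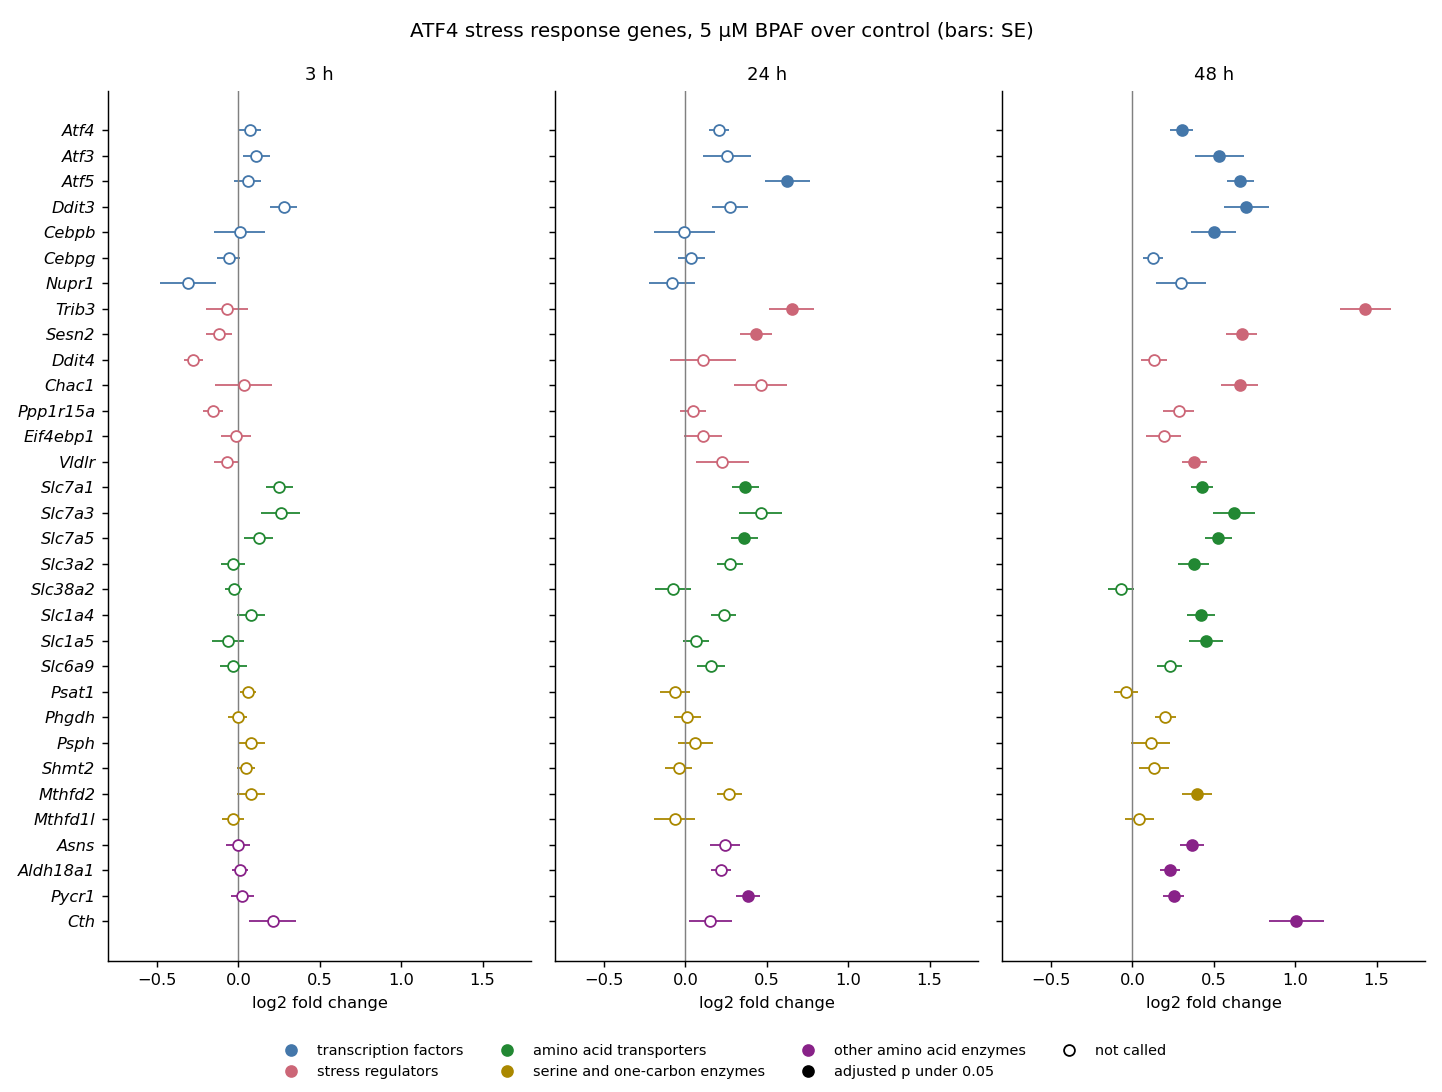
Log2 fold change (x axis) of each of the 32 genes (y axis) in limbs at 5 µM BPAF over controls at 3, 24 and 48 h, with bars for the standard error of the edgeR fit. Colours mark the role and filled points an adjusted p under 0.05: no point is filled at 3 h, 6 are at 24 h and 20 at 48 h, where Trib3 at 1.43 and Cth at 1.01 lie farthest to the right.

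Among the stress regulators, Trib3 encodes a pseudokinase that feeds back on ATF4. Its levels at 48 h were 39.7, 26.3, 50.7, 26.3 and 34.0 CPM in limbs at 5 µM BPAF, 18.5, 19.3, 17.2, 12.6 and 15.3 CPM at 1 µM, and 14.3, 14.1, 11.4, 12.1 and 12.6 CPM in controls. Every library at 5 µM lay above every library of the other groups, while 1 µM overlapped controls. Its log2 fold change at 5 µM over control was 1.43 ± 0.16 (SE, edgeR adjusted p = 1.33e-05), the smallest p among the 32 genes. Trib3 (ENSMUSG00000032715) lies on chromosome 2 from 152337422 to 152344032 on the minus strand in mm10.

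Sesn2, a leucine sensor that restrains the growth kinase complex mTORC1, had 81.1, 73.0, 82.6, 65.5 and 77.6 CPM at 5 µM against 42.2, 46.8, 54.99, 36.7 and 53.8 CPM in controls at 48 h. The lowest BPAF library stood above the highest control. The difference on the log2 scale was 0.67 ± 0.10 (edgeR adjusted p = 0.000213). Chac1, which degrades the antioxidant glutathione, had 39.5, 26.9, 40.9, 29.3 and 37.0 CPM at 5 µM against 21.0, 24.3, 22.5, 19.9 and 20.5 CPM in controls. Its groups did not overlap either, although replicates 2 and 4 at 5 µM came close to the highest control. The log2 fold change of Chac1 was 0.66 ± 0.11 (edgeR adjusted p = 0.000989). Vldlr, a lipoprotein receptor, also rose, by 0.38 ± 0.08 on the log2 scale (edgeR adjusted p = 0.00416). Not called were Ppp1r15a at 0.29, the subunit that directs a phosphatase to eIF2α, Eif4ebp1 at 0.19, an inhibitor of cap-dependent translation, and Ddit4 at 0.13, an inhibitor of mTORC1.

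Of the transcription factors, Atf5, an ATF4 relative linked to the mitochondrial stress response, had 162, 148, 174, 128 and 177 CPM at 5 µM against 89.6, 105, 98.5, 89.6 and 108 CPM in controls at 48 h. No control library reached the lowest BPAF library. Its log2 ratio to control was 0.66 ± 0.08 (edgeR adjusted p = 5.56e-05). Ddit3, which encodes the death-promoting factor CHOP, had 41.5, 32.99, 47.9, 29.6 and 34.2 CPM at 5 µM against 21.1, 28.2, 17.9, 18.9 and 26.5 CPM in controls. Its groups were separate but close, with replicate 4 at 5 µM just above replicate 2 of the controls. The log2 fold change of Ddit3 was 0.70 ± 0.14 (edgeR adjusted p = 0.00368).

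Atf4 itself changed less at the level of messenger RNA. It had 389, 333, 374, 312 and 348 CPM at 5 µM against 277, 320, 262, 264 and 276 CPM in controls at 48 h, so the highest control exceeded the lowest BPAF library. On the log2 scale the change was 0.30 ± 0.07 (edgeR adjusted p = 0.012). Translation of Atf4, the step at which the pathway is mainly controlled, is not measured by these data. Atf3, a stress-induced repressor, rose by 0.53 ± 0.15 (edgeR adjusted p = 0.0382) and Cebpb, a C/EBP family factor, by 0.50 ± 0.14 (edgeR adjusted p = 0.0349). Cebpg, a partner of ATF4, at 0.13 and Nupr1, a small stress-induced nuclear protein, at 0.30 were not called.

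Of the 8 amino acid transporters 6 rose. Slc7a5, the light chain of the large neutral amino acid exchanger, had 146, 129, 184, 141 and 154 CPM at 5 µM against 89.7, 111, 105, 96.6 and 112 CPM in controls at 48 h. All BPAF libraries were above all controls. The fitted log2 change was 0.53 ± 0.08 (edgeR adjusted p = 0.000547), and that of its partner Slc3a2, the shared heavy chain, was 0.38 ± 0.09 (edgeR adjusted p = 0.0199). Slc7a1, which carries arginine and lysine, had 118, 94.7, 123, 112 and 116 CPM at 5 µM against 83.8, 90.1, 78.9, 79.9 and 79.0 CPM in controls. Replicate 2 at 5 µM was the only BPAF library near the control range. The log2 fold change of Slc7a1 was 0.43 ± 0.07 (edgeR adjusted p = 0.00064), and Slc7a3 of the same family rose by 0.62 ± 0.13 (edgeR adjusted p = 0.00516).

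Slc1a4, a carrier of alanine, serine and cysteine, had 94.2, 81.0, 118, 83.1 and 103 CPM at 5 µM against 68.1, 67.3, 68.6, 74.6 and 73.4 CPM in controls at 48 h. These groups did not overlap. Its log2 fold change was 0.42 ± 0.09 (edgeR adjusted p = 0.00473), beside 0.45 ± 0.10 (edgeR adjusted p = 0.0108) for the related glutamine carrier Slc1a5. Slc6a9, a glycine carrier, at 0.23 and Slc38a2, a sodium-coupled neutral amino acid carrier, at -0.07 were not called.

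**Figure D2:**
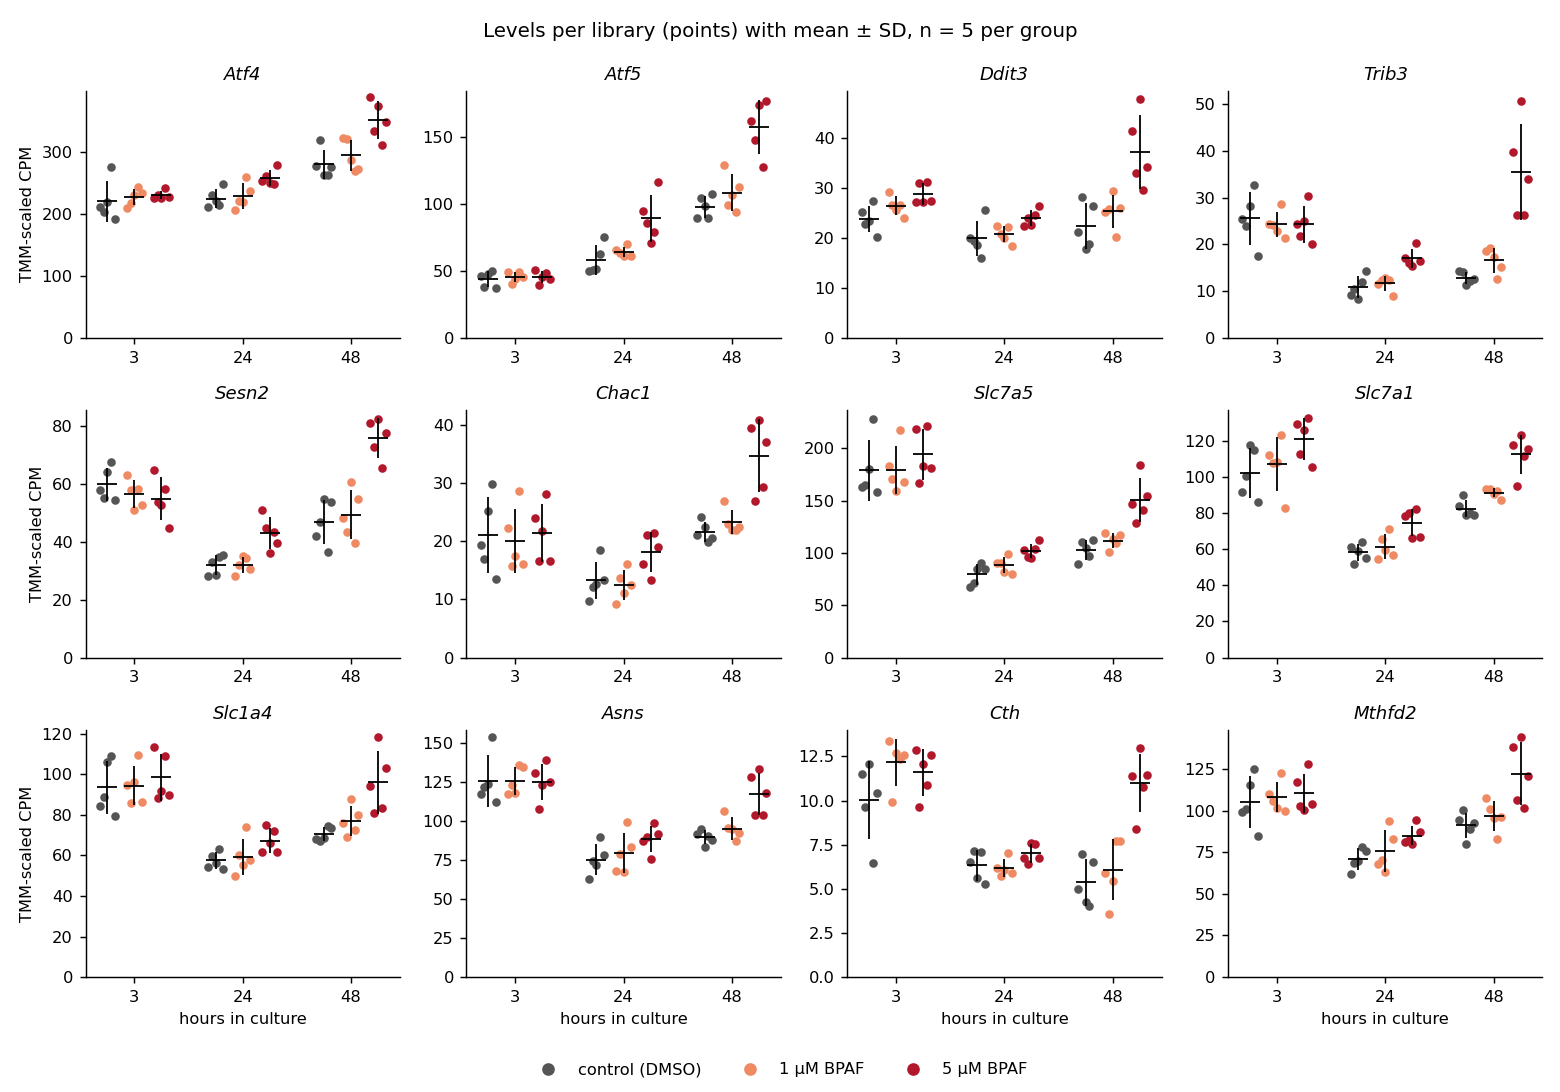
TMM-scaled CPM (y axis, from 0) of 12 of the ATF4 genes in each library (points) against hours in culture (x axis), for control, 1 µM and 5 µM BPAF, with the mean and SD of 5 libraries as black marks. At 48 h the 5 µM points of Trib3, Sesn2, Slc7a5 and Cth lie above all points of the other groups, and in most panels levels at 24 h are lower than at 3 h.

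All 4 enzymes of asparagine, proline and cysteine synthesis rose at 48 h. Cth, which makes cysteine from cystathionine, had 11.4, 8.39, 13.0, 10.8 and 11.4 CPM at 5 µM, 5.91, 3.60, 5.47, 7.69 and 7.72 CPM at 1 µM, and 4.98, 6.996, 4.24, 4.05 and 6.55 CPM in controls at 48 h. All libraries at 5 µM were above all others. Its log2 fold change at 5 µM over control was 1.01 ± 0.17 (edgeR adjusted p = 0.000827), although Cth was the gene with the lowest level per kilobase of the 32. Asns, asparagine synthetase, had 128, 103, 133, 104 and 118 CPM at 5 µM against 91.7, 95.1, 83.2, 89.97 and 87.6 CPM in controls. Its groups did not overlap, and the log2 fold change was 0.36 ± 0.07 (edgeR adjusted p = 0.00399).

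Both enzymes of proline synthesis from glutamate rose. Pycr1 had 85.2, 79.3, 78.0, 69.3 and 78.5 CPM at 5 µM against 59.3, 63.5, 63.4, 67.1 and 69.1 CPM in controls at 48 h, with replicate 4 at 5 µM next to the highest control. The log2 fold changes were 0.25 ± 0.06 for Pycr1 (edgeR adjusted p = 0.021) and 0.23 ± 0.06 for Aldh18a1 (edgeR adjusted p = 0.0323).

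Serine and one-carbon enzymes were called in 1 of 6 cases. Mthfd2, a mitochondrial folate enzyme, had 138, 106, 144, 102 and 121 CPM at 5 µM against 94.3, 100, 80.0, 89.1 and 92.4 CPM in controls at 48 h. The groups were separate, but the lowest BPAF library was close to the highest control. The difference on the log2 scale was 0.40 ± 0.09 (edgeR adjusted p = 0.0106). The 3 enzymes of serine synthesis were not called, with log2 fold changes of 0.20 for Phgdh, -0.04 for Psat1 and 0.11 for Psph. Shmt2, which moves a carbon from serine to folate in mitochondria, at 0.13 and Mthfd1l, a mitochondrial formate enzyme, at 0.04 were not called either.

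Over these 20 calls, 15 held under every alternative tried, and 5 were lost when single libraries were left out. Slc3a2 was lost without replicate 1 at 5 µM or control replicate 4, with an edgeR adjusted p of at most 0.0594. Pycr1 was lost without replicate 1 at 5 µM or control replicate 1 (edgeR adjusted p at most 0.0636). Atf3 was lost without replicate 1 or 3 at 5 µM or control replicate 3, 4 or 5 (edgeR adjusted p at most 0.111). Cebpb (edgeR adjusted p at most 0.0948) and Aldh18a1 (at most 0.0768) were lost without replicate 1, 3 or 5 at 5 µM or control replicate 1, 3, 4 or 5. In 15 of the 32 genes all 5 libraries at 5 µM exceeded all 5 controls at 48 h, against 4.34% of all 13756 genes compared this way. The 32 genes together made up 0.286% ± 0.0247 of reads at 5 µM and 0.235% ± 0.00892 in controls at 48 h (SD, n = 5 each).

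Libraries of the 5 µM group at 48 h differed among themselves in a shared way. Replicate 3 was the highest in 23 of the 32 genes, against 24.85% of all genes, and among the top 2 in 31, against 44.4%. Replicate 2 was the lowest in 18 genes, against 21.79% of all genes, and replicate 4 in 13, against 20.49%. Replicate 1 was among the top 2 in 20, against 38.91% of all genes.

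At 24 h fewer of the genes were called. Of the 32, 6 rose at 5 µM over control and none fell, where 0.475% of all 16433 genes tested were called higher, 1.10% lower and 1.57% in either direction. Their median log2 fold change was 0.21, with 26 above 0, and the median of all genes was 0.00. The 6 were Trib3, Sesn2, Atf5, Slc7a1, Slc7a5 and Pycr1, and all of them were also called at 48 h. None of the 6 serine and one-carbon enzymes was called by edgeR, with log2 fold changes of -0.07 for Mthfd1l to 0.27 for Mthfd2.

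Trib3 had 17.0, 16.0, 15.3, 20.3 and 16.4 CPM at 5 µM against 9.13, 10.6, 8.38, 12.004 and 14.3 CPM in controls at 24 h. The groups did not overlap, with control replicate 5 nearest to the BPAF libraries. Its log2 fold change was 0.65 ± 0.14 (edgeR adjusted p = 0.0287). Atf5 had 95.1, 85.7, 70.8, 79.3 and 117 CPM at 5 µM against 50.1, 51.1, 51.4, 63.0 and 75.8 CPM in controls. Control replicate 5 lay above replicate 3 at 5 µM, and the log2 fold change was 0.63 ± 0.14 (edgeR adjusted p = 0.0316).

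Pycr1 had 58.6, 55.8, 56.8, 56.7 and 66.4 CPM at 5 µM against 42.7, 43.1, 42.5, 49.3 and 49.2 CPM in controls at 24 h. The groups were apart, and the log2 fold change was 0.38 ± 0.07 (edgeR adjusted p = 0.0149). Sesn2 at 0.43 ± 0.10 (edgeR adjusted p = 0.0419), Slc7a1 at 0.37 ± 0.08 (edgeR adjusted p = 0.0353) and Slc7a5 at 0.36 ± 0.08 (edgeR adjusted p = 0.0453) were closer to the threshold. Atf4 was at 0.21 ± 0.06 and was not called (edgeR adjusted p = 0.128), although its 5 libraries at 5 µM, 248 to 279 CPM, were all above the controls, 211 to 248 CPM, the closest by a narrow margin. Such separation held for 8 of the 32 genes at 24 h, against 1.51% of all genes.

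The count at 24 h was sensitive to leaving out any of several libraries. It was 0 without control replicate 1, 2 or 3, 1 without replicate 1 or 2 at 5 µM, 2 without replicate 4 at 5 µM and 3 without control replicate 4. It was 11 by DESeq2 and 13 with replicate number as a block, and none of the 6 calls held under every alternative. Without the library highest in haemoglobin reads in each group, a setting chosen after seeing the data, it was 9. Leaving out each library in turn gave 109 to 498 calls among all genes, against 258 with all libraries. The log2 fold changes of the 6 genes stayed above 0 under every alternative, between 0.29 (Slc7a5) and 0.78 (Trib3).

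At 3 h no ATF4 gene was called by edgeR at 5 µM over control, where 0.18% of all 16651 genes were called, 0.114% higher and 0.0661% lower. At an unadjusted p under 0.05 there were 5, of which 3 were higher, and DESeq2 called 1. Counted from the smallest edgeR p, the last of these 5, Slc7a3, was number 1267 of all 16651 genes. The median log2 fold change was 0.01, with 17 of 32 above 0. Ddit4 had 120, 116, 108, 125 and 127 CPM at 5 µM against 156, 125, 145, 145 and 153 CPM in controls. Control replicate 2 lay inside the BPAF range and the other controls above it. The log2 fold change of Ddit4 was -0.28 ± 0.06 (edgeR adjusted p = 0.0697), and DESeq2 called it lower (adjusted p = 0.0027), as did edgeR without control replicate 2 (adjusted p = 0.0141). The unadjusted higher values were those of Ddit3 at 0.28 ± 0.08, Slc7a1 at 0.25 ± 0.08 and Slc7a3 at 0.26 ± 0.12, with edgeR adjusted p values of 0.256, 0.331 and 0.565.

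Whether the 5 µM effect differed between times was tested directly in fits of 20 libraries. For the effect at 24 h minus that at 3 h, edgeR called none of the 32 genes, with 7 at an unadjusted p under 0.05. DESeq2 called 1. Of all genes edgeR called 0.336%, with 0.0627% higher and 0.274% lower. Counted from the smallest edgeR p, the last of the 7, Ppp1r15a, was number 1149 of 17535 genes. The smallest adjusted p was that of Sesn2, whose effect was higher at 24 h by 0.56 ± 0.14 (edgeR adjusted p = 0.0768). With replicate number as a block edgeR called 5 of the 32 genes for this difference, and 149 of all genes. For the effect at 48 h minus that at 24 h, edgeR called none either, with 5 at an unadjusted p under 0.05. DESeq2 called 1. Of all genes edgeR called 0.0693%, with 0.00578% higher and 0.0635% lower. The last of the 5 by edgeR p, Cebpb, was number 769 of 17315 genes. Cth at 0.87 ± 0.21 (edgeR adjusted p = 0.189) and Trib3 at 0.79 ± 0.23 (edgeR adjusted p = 0.34) had the largest values, and 31 of 32 genes were above 0. The larger count of calls at 48 h than at 24 h was not matched by a difference between 48 and 24 h that edgeR called for any single gene, and the gene called by DESeq2 was Cth.

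At 1 µM no ATF4 gene was called over control by edgeR or by DESeq2 at any time. The shares of all genes called by edgeR were 0% at 3 h, 0.00608% at 24 h and 0% at 48 h. At an unadjusted p under 0.05 there were 0 of the 32 genes at 3 h, 1 at 24 h (Ddit4, at -0.34 ± 0.14) and 3 at 48 h, all 3 of them higher. Those at 48 h were Trib3 at 0.36 ± 0.12, Vldlr at 0.25 ± 0.09 and Slc7a1 at 0.15 ± 0.06, each with an edgeR adjusted p of 0.998. Counted from the smallest edgeR p, Ddit4 at 24 h was number 248 of 16439 genes. At 48 h Trib3 was number 108, Vldlr 164 and Slc7a1 208 of 16479 genes. Median log2 fold changes at 1 µM were -0.02, 0.01 and 0.07 at 3, 24 and 48 h. The 1 µM libraries and the 5 µM libraries were set against the same controls, so their values are given side by side only.

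**Figure D3:**
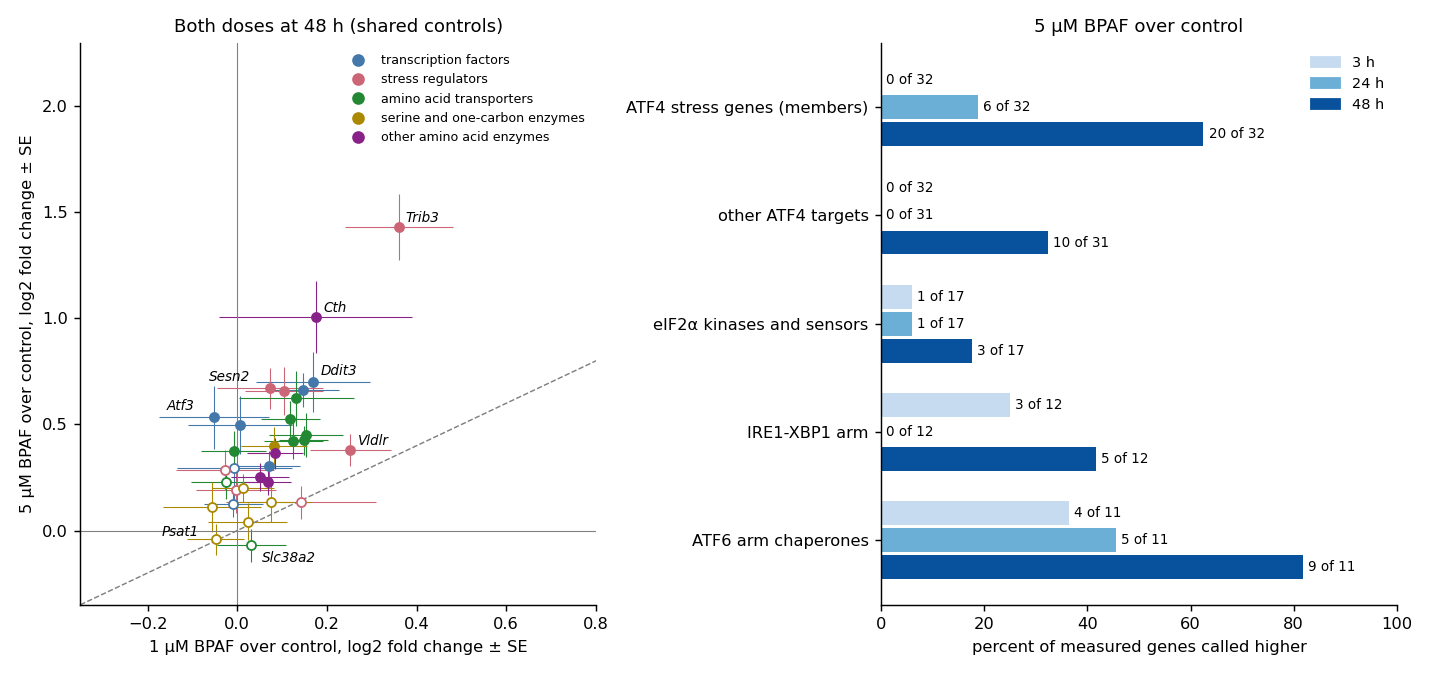
Left, log2 fold change over control at 48 h of the 32 genes at 5 µM BPAF (y axis) against 1 µM BPAF (x axis), with standard errors, shared controls and a dashed line of equal values, where filled points were called at 5 µM. Right, the percent of measured genes called higher at 5 µM over control in 5 gene lists at 3, 24 and 48 h, with the counts printed. They reach 20 of 32 ATF4 genes and 9 of 11 ATF6 arm chaperones at 48 h, when 2.74% of all genes were called higher.

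The direct comparison of the doses gave 13 of 32 genes higher at 5 µM than at 1 µM and none lower at 48 h, where 2.19% of all 16349 genes were called higher, 3.77% lower and 5.96% in either direction. They were Atf3, Atf5, Ddit3, Cebpb, Trib3, Sesn2, Chac1, Slc7a1, Slc7a3, Slc7a5, Slc3a2, Asns and Cth. Trib3 differed by 1.07 ± 0.16 (edgeR adjusted p = 0.000444), Cth by 0.84 ± 0.18 (edgeR adjusted p = 0.00999) and Sesn2 by 0.60 ± 0.10 (edgeR adjusted p = 0.000867). For Atf4 the difference of 0.24 ± 0.07 missed the threshold (edgeR adjusted p = 0.0529). All 5 libraries at 5 µM exceeded all 5 at 1 µM in 9 of the 32 genes at 48 h, against 3.73% of all genes, and in 6 at 24 h, against 1.05%.

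At 24 h the count was 4 higher and none lower, where 0.242% of all genes were called higher, 0.946% lower and 1.19% in either direction. These were Trib3 at 0.54 ± 0.12 (edgeR adjusted p = 0.0302), Atf5 at 0.48 ± 0.10 (edgeR adjusted p = 0.0309), Sesn2 at 0.42 ± 0.09 (edgeR adjusted p = 0.0367) and Slc3a2 at 0.25 ± 0.06 (edgeR adjusted p = 0.0485). The count was 0 without replicate 1 or 2 at 5 µM or without replicate 1, 2, 4 or 5 at 1 µM, 1 without replicate 4 at 5 µM and 2 without replicate 3 at 1 µM. At 3 h edgeR called none, where 0.036% of all genes were called, 0.03% higher and 0.00599% lower, with 4 at an unadjusted p under 0.05. The last of these 4 by edgeR p, Slc7a1, was number 926 of 16681 genes. DESeq2 called 1, Ddit4, and so did the fit with replicate number as a block, in which Ddit4 was at -0.27 (edgeR adjusted p = 0.00985). Mean levels stood in the order control, 1 µM, 5 µM in 9, 15 and 22 of the 32 genes at 3, 24 and 48 h, while 19.0%, 21.8% and 26.8% of 13756 genes did so.

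Levels of the 32 genes also differed with time in culture in the absence of BPAF. In controls at 24 h compared with 3 h, 22 of the 32 fell and 2 rose, where 18.7% of all 16481 genes fell, 19.1% rose and 37.8% were called in either direction. The median log2 fold change was -0.41, with 4 of 32 above 0. Atf3 had 6.98, 8.49, 9.59, 6.62 and 7.64 CPM at 24 h against 31.2, 30.3, 23.4, 28.5 and 27.1 CPM at 3 h, far apart in every library. Its log2 fold change was -1.84 ± 0.11 (edgeR adjusted p = 1.01e-09). Trib3 fell by 1.24 (SE 0.16, edgeR adjusted p = 7.34e-06), Slc7a5 by 1.17 (SE 0.10, edgeR adjusted p = 6.51e-08) and Sesn2 by 0.91 (SE 0.08, edgeR adjusted p = 1.31e-07) on the log2 scale.

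All 6 serine and one-carbon enzymes fell between 3 and 24 h, as did 6 of 7 stress regulators and 6 of 8 transporters. The 2 genes that rose were Pycr1 at 0.52 ± 0.07 (edgeR adjusted p = 1.56e-05) and Atf5 at 0.40 ± 0.11 (edgeR adjusted p = 0.0102). Atf4 was at 0.02 ± 0.08 and was not called (edgeR adjusted p = 0.847), with 211 to 248 CPM at 24 h against 192 to 275 CPM at 3 h.

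In controls at 48 h compared with 24 h, 16 of the 32 rose and none fell, where 9.71% of all 16445 genes rose, 6.57% fell and 16.3% were called in either direction. The median log2 fold change was 0.27, with 28 of 32 above 0. Nupr1 had 20.2, 24.6, 21.6, 18.2 and 23.9 CPM at 48 h against 5.73, 6.59, 7.86, 8.63 and 8.9997 CPM at 24 h. The groups were far apart, and the log2 fold change was 1.52 ± 0.13 (edgeR adjusted p = 1.25e-06). Atf5 rose by 0.75 ± 0.10 (edgeR adjusted p = 0.000141), Chac1 by 0.70 ± 0.14 (edgeR adjusted p = 0.00209), Slc7a1 by 0.50 ± 0.07 (edgeR adjusted p = 0.000113) and Atf4 by 0.31 ± 0.07 (edgeR adjusted p = 0.00355). Trib3 at 0.24 ± 0.14 and Cth at -0.24 ± 0.17, the pair with the largest log2 fold changes at 5 µM over control, were not called between 24 and 48 h in controls.

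Cell-type markers were also counted in the same controls. Of all genes 18.7% fell and 19.1% rose at 24 h over 3 h. At 48 h over 24 h 6.57% fell and 9.71% rose. A single marker called in a list is not read as a shift of that cell type. At 24 h over 3 h, 5 of 5 erythroid, 5 of 5 endothelial, 4 of 5 limb mesenchyme, 4 of 5 epidermal and 2 of 4 Schwann and nerve markers fell. All 6 muscle, 5 of 6 chondrocyte, 5 of 5 osteoblast, 4 of 6 macrophage and 1 of 5 epidermal markers rose. At 48 h over 24 h, 4 of 4 erythroid markers tested, 3 of 5 limb mesenchyme and 2 of 4 Schwann and nerve markers fell, while 5 of 5 osteoblast, 5 of 6 chondrocyte, 5 of 6 macrophage, 4 of 6 muscle, 1 of 5 endothelial and 1 of 5 epidermal markers rose. Summed chondrocyte markers were 3631 to 4038 CPM at 3 h, 8111 to 9738 CPM at 24 h and 12759 to 16027 CPM at 48 h. The part of these shifts in the changes of the ATF4 genes with time was not tested.

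**Figure D4:**
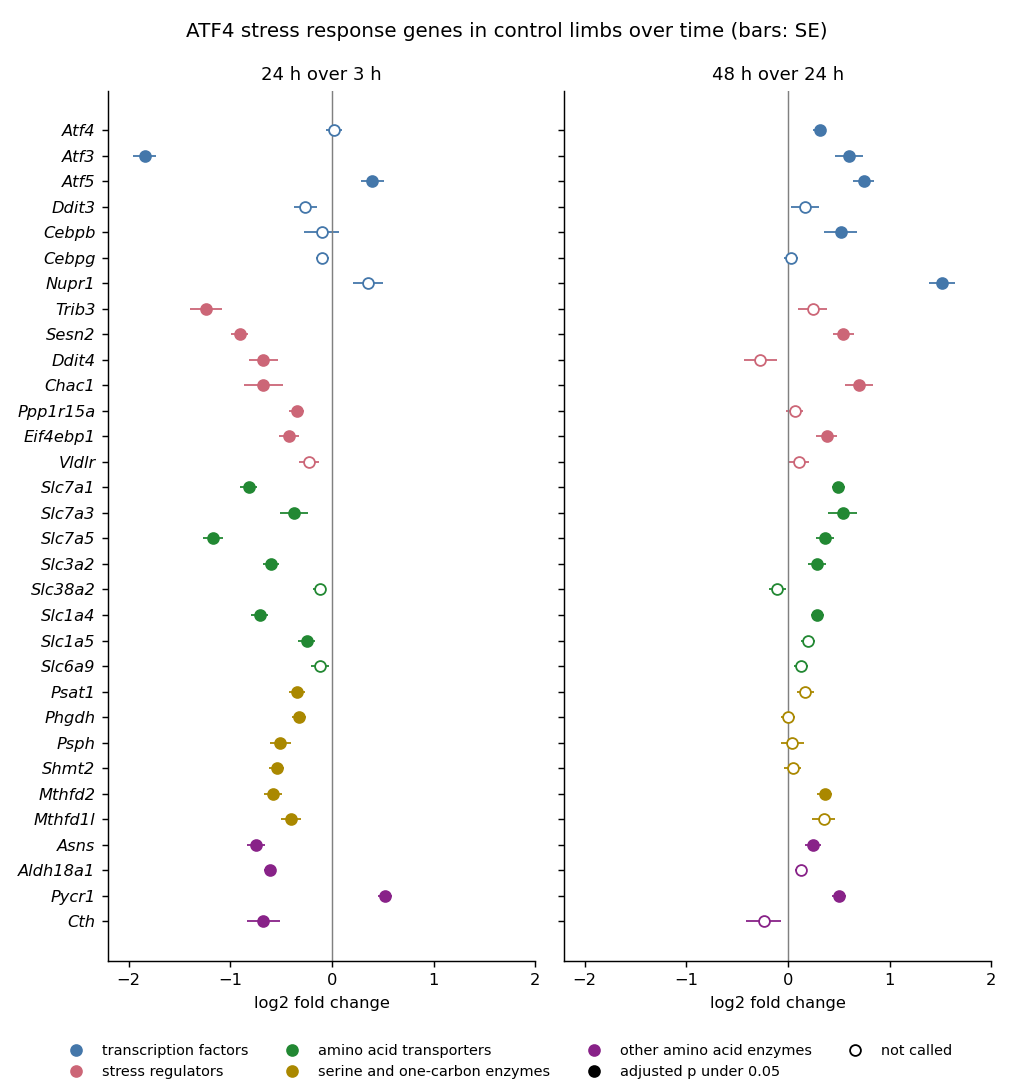
Log2 fold change (x axis) with standard error of each of the 32 genes (y axis) in control limbs, at 24 h over 3 h (left) and at 48 h over 24 h (right), where filled points have an adjusted p under 0.05. On the left 22 filled points lie below 0 and 2 above, and on the right all 16 filled points lie above 0.

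Trib3 averaged 35.4 ± 10.3 CPM at 5 µM at 48 h and 12.9 ± 1.27 CPM in controls at 48 h (SD, n = 5 each), beside 25.6 ± 5.59 CPM in controls at 3 h. The share of reads from the 32 genes in controls was 0.286% ± 0.0181 at 3 h, 0.211% ± 0.0106 at 24 h and 0.235% ± 0.00892 at 48 h (SD, n = 5 each). One control library at 3 h, replicate 4, was the highest of its group in 23 of the 32 genes, against 27.14% of all genes.

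Per kilobase of gene length, which allows levels of different genes to be set side by side, Atf4 was the most abundant of the 32 at 109 CPM per kilobase over all 45 libraries. Phgdh at 58.0 and Ddit4 at 57.7 CPM per kilobase came next, and the lowest were Slc7a3 at 3.91 and Cth at 3.02. Every gene had at least 61 reads in every library.

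Other genes of the pathway were counted from lists chosen by function. Of all genes tested at 5 µM over control, 0.114% were called higher at 3 h, 0.475% at 24 h and 2.74% at 48 h. Among 31 other reported ATF4 targets measured at 48 h, 10 rose at 5 µM over control and none fell, while none of 32 was called by edgeR at 3 h and none of 31 at 24 h. The 3 of smallest p were Herpud1, which helps to clear unfolded protein from the reticulum, at 0.49 ± 0.09 (edgeR adjusted p = 0.00234), Aars, the alanyl-tRNA synthetase, at 0.34 ± 0.07 (edgeR adjusted p = 0.00613), and Bcat1, which acts on branched-chain amino acids, at 0.36 ± 0.08 (edgeR adjusted p = 0.0082). Another list of 17 genes held eIF2α kinases, phosphatase parts and sensors, together with subunits of eIF2 and eIF2B. Of these 17, 3 rose at 48 h. They were Impact, an inhibitor of GCN2 activation, at 0.30 ± 0.05 (edgeR adjusted p = 0.00167), and Dnajc3, an inhibitor of eIF2α kinases, at 0.34 ± 0.07 (edgeR adjusted p = 0.00387), with Eif2ak3, the kinase PERK, at 0.29 ± 0.08 (edgeR adjusted p = 0.0409). Dnajc3 was the only one of that list called at 3 h, at 0.42 ± 0.06 (edgeR adjusted p = 0.00394), and at 24 h, at 0.27 ± 0.06 (edgeR adjusted p = 0.0416).

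Reticulum chaperones of the ATF6 arm, another branch of the unfolded protein response, included calls at 3 h, when edgeR called none of the 32 ATF4 genes. Of 11, 4 rose at 3 h, 5 at 24 h and 9 at 48 h, and none fell. The shares of all genes called higher were 0.114%, 0.475% and 2.74% at these times. Hspa5, the main chaperone of the reticulum, had log2 fold changes of 0.40 ± 0.06 at 3 h (edgeR adjusted p = 0.00319), 0.36 ± 0.05 at 24 h (edgeR adjusted p = 0.00233) and 0.43 ± 0.06 at 48 h (edgeR adjusted p = 0.000304). In the IRE1-XBP1 arm, the remaining branch, 3 of 12 rose at 3 h, 0 at 24 h and 5 at 48 h. Xbp1 itself, its transcription factor, was at 0.48 ± 0.06 at 3 h (edgeR adjusted p = 0.00182) and Dnajb9, a reticulum co-chaperone, at 0.54 ± 0.09 at 48 h (edgeR adjusted p = 0.000569). Of 11 genes linked to ATF4 in bone and cartilage and measured at 48 h, only Ibsp, a bone matrix protein gene, was called. It was lower, at -1.34 ± 0.23 on the log2 scale (edgeR adjusted p = 0.000946). Of 11 components and inputs of mTORC1 only Rragd, a GTPase, was called at 48 h, at -0.65 ± 0.10 (edgeR adjusted p = 0.000499). Of all genes 4.42% were called lower in this comparison.

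Marker genes of several cell types moved in the same comparison, where 4.42% of all genes were called lower and 2.74% higher at 48 h. Here too a single marker called in a list is not read as a shift. Summed levels of 6 skeletal muscle markers at 48 h were 1385 to 1676 CPM at 5 µM against 2373 to 3889 CPM in controls, and 5 of the 6 fell. Those of 6 macrophage markers were 85.3 to 109 CPM against 154 to 205 CPM, and again 5 of 6 fell. For 5 endothelial markers the sums were 164 to 222 CPM at 5 µM against 233 to 269 CPM in controls, and 2 of 5 fell. For 6 chondrocyte markers they were 15361 to 18993 CPM against 12759 to 16027 CPM, and none was called. Sums of 5 limb mesenchyme markers were 859 to 921 CPM at 5 µM against 786 to 833 CPM in controls, with none called. For Schwann and nerve markers 1 of 4 fell, with sums of 41.2 to 51.1 CPM at 5 µM against 60.8 to 70.96 CPM in controls. Of the other lists, 1 of 3 erythroid markers tested, 1 of 5 epidermal and 1 of 5 osteoblast markers fell. The osteoblast marker was Ibsp, the gene already named among those linked to ATF4 in bone and cartilage. For 5 µM over 1 µM at 48 h, 6 of 6 muscle, 4 of 6 macrophage and 2 of 5 endothelial markers fell. So did 1 of 4 Schwann and nerve and 1 of 5 osteoblast markers, while 4 of 6 chondrocyte markers rose. Of all genes 3.77% were called lower and 2.19% higher between these doses. At 24 h the muscle sums were 1233 to 1681 CPM at 5 µM against 1980 to 2260 CPM in controls, and the macrophage sums 52.8 to 83.7 CPM against 97.7 to 122 CPM. No marker of these lists was at 0 CPM throughout a group. In bulk tissue fewer cells of a type and less RNA per cell cannot be told apart, and the part of these shifts in the values of the ATF4 genes was not tested.

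Libraries held between 14901842 and 25154115 reads assigned to genes, with a median of 17820524. Reads of 4 Y-linked genes were under 1 CPM in 3 libraries, although limbs of both sexes were cultured together, and adding the Y-linked level to the fit gave 20 of 32 calls at 48 h and 4 at 24 h. In the authors' deposited tables, 22 of the 32 genes had an adjusted p under 0.05 and a higher value at 5 µM over control at 48 h, 11 at 24 h and 0 at 3 h, where 1 was lower. Of all genes in those of the authors' deposited tables, 5.10% at 48 h, 1.72% at 24 h and 0.370% at 3 h had such an adjusted p in either direction. These shares are of all genes listed, 29822, 29910 and 30562, with no filter on low counts. They are therefore not on the same footing as the edgeR shares above. One library of the 1 µM group at 3 h carries a characteristic that names another compound and dose, and it was kept in the group that its title gives.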

How the data were processed

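RNA was selected by its poly-A tail, per the labels' protocols. The submitters' processing notes name CASAVA 1.8, STAR 2.5, HTSeq 0.6.1, DESeq2 and the mm10 build, and a strand setting and annotation release are not given in the sources used here. The authors deposited 9 tables, each comparing 2 groups of 5 libraries. They hold read counts per gene, a normalised signal that is the count divided by a library size factor, FPKM, a log2 fold change and p-values, per the file headers. The counts were used for all tests, the deposited log2 fold changes and p-values only where named, and the deposited signal and FPKM columns for no result.

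The tables were joined into 45 libraries. A library present in several tables had the same counts in each (largest difference 0). A table lists genes with at least 2 reads over its 10 libraries, and the 11.7% of gene and library combinations that were absent were read as 0. Genes were filtered with filterByExpr (minimum count 10, minimum total 15), scaled by TMM and tested with edgeR 4.0.16 in R 4.3.3 by the quasi-likelihood F test, separately for each comparison, on the libraries of the groups compared (20 for a difference between times). Benjamini-Hochberg adjustment ran over all genes tested at 0.05. DESeq2 1.42.0 and the other settings in the closing section were alternatives. The fit was tested on simulated counts first. No 2 libraries of a group agreed within sampling noise.

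The 32 genes and all other lists were chosen by symbol with earlier results of these data known. Any of the 32 could be named. Per-library values were given for genes called at 5 µM over control at 48 or 24 h. Those shown had the smallest p, up to 3 per role over both times together. Atf4 was shown as well, and some others were added after their values were seen. Up to 3 called genes of smallest p were named per other list and comparison.

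Replicate numbers of the titles were not used as a block. Deviations from the group means of same-numbered libraries correlated above 0.1 in every pair for 1 µM over control at 24 h (lowest r = 0.11) and for 5 µM over 1 µM at 3 h (lowest r = 0.19), of 11 comparisons checked over 13756 genes. In 1 place the treatment protocol writes the name of bisphenol A, but BPAF is given in the title of every treated library. For 1 µM at 48 h the titles and library codes of replicates 1 and 2 carry each other's number.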

Additional observations from a re-analysis of the deposited data

Results flagged for a closer look

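In 13 of 288 sets of 5 libraries of the 32 genes, the most extreme library stood apart from the other 4 by Dixon's criterion at 5%. Chance flags about 1 in 20 groups. Values are CPM.

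At 5 µM BPAF at 24 h, replicate 4 was high for Ddit4 at 149, with the next library at 91.9, and for Mthfd1l at 26.7, with the next at 21.5. In the same group Pycr1 was high in replicate 5 at 66.4, with the next at 58.6. At 1 µM at 48 h, replicate 2 was high for Ddit4 at 138 (next 76.1) and for Ppp1r15a at 47.3 (next 34.6). Chac1 was high in replicate 1 at 26.9 (next 23.0), and Mthfd1l was low in replicate 5 at 25.7 (next 29.8).

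In controls at 48 h, replicate 2 was high for Atf4 at 320.1 (next 277) and for Cebpb at 19.1 (next 14.6), and replicate 5 was high for Psph at 18.6 (next 15.3). In controls at 24 h, Slc38a2 was low in replicate 5 at 289.9 (next 351). In controls at 3 h, Asns was high in replicate 4 at 154 (next 123), and Pycr1 was low in replicate 1 at 27.6 (next 31.9).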

How the results depend on the processing

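Counts are given as ATF4 genes first and all genes called second. For 5 µM over control at 48 h (20 and 1171), RLE size factors gave 20 and 1186, DESeq2 22 and 1528, no filter on low counts 20 and 1172, and the Y-linked level in the fit 20 and 1486. For 5 µM over control at 3 h (0 and 30), DESeq2 gave 1 and 115 and no filter 1 and 79. At 24 h (6 and 258), DESeq2 gave 11 and 517, the Y-linked covariate 4 and 434, and leaving out the library highest in haemoglobin reads in each group 9 and 514. For 1 µM over control all genes called numbered 2 by DESeq2 and 3 with no filter at 24 h, against 1, and 4 and 1 at 48 h, against 0. For 5 µM over 1 µM at 3 h (0 and 6), DESeq2 gave 1 and 40 and no filter 1 and 25. At 24 h (4 and 196), all genes called numbered 339 by DESeq2 and 329 with the Y-linked covariate. For the 5 µM effect at 24 h minus 3 h (0 and 59), DESeq2 gave 1 and 149, no filter gave 1 ATF4 gene, and the Y-linked covariate gave 31 genes in all. For the effect at 48 h minus 24 h (0 and 12), DESeq2 gave 1 and 50, and no filter 27 genes in all. The cause of these differences was not tested.

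With replicate number as a block, counts were 1 and 62 at 3 h, 13 and 655 at 24 h, and 22 and 1672 at 48 h for 5 µM over control. The block gave 2 genes in all for 1 µM over control at 24 h. For 5 µM over 1 µM it gave 1 and 50 at 3 h, 7 and 319 at 24 h and 21 ATF4 genes at 48 h, and by library code number 21 and 1618 at 48 h, against 13 and 974 without a block. It gave 5 and 149 for the effect at 24 h minus 3 h and 50 genes in all for that at 48 h minus 24 h. The labels name no pairing, so this is a hint only. The mean r of same-numbered libraries for 5 µM over control was 0.29 at 24 h and 0.25 at 48 h. It was 0.27 for 1 µM over control at 24 h. In each of these 4 of 5 replicate numbers correlated best with themselves, and 5 of 5 did for 1 µM over control at 3 h. Among all comparisons of doses the mean r was lowest at 0.17, for 5 µM over control at 3 h. It was highest at 0.29, for 5 µM over 1 µM at 3 h. Between times in controls the mean r was lower, at 0.07 for 24 h over 3 h and 0.08 for 48 h over 24 h. Whether libraries of the same number share a source was not tested.

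Leaving out each library in turn, ATF4 genes called for 5 µM over control ranged from 0 to 1 at 3 h, 0 to 7 at 24 h and 15 to 21 at 48 h, and all genes from 15 to 45, 109 to 498 and 912 to 1153. For 1 µM over control they ranged from 0 to 0 at each time, and all genes from 0 to 1, 1 to 1 and 0 to 0. For 5 µM over 1 µM they ranged from 0 to 1, 0 to 6 and 11 to 18, and all genes from 1 to 9, 95 to 553 and 718 to 948. In controls the ranges were 22 to 26 and 5582 to 6399 at 24 h over 3 h, and 12 to 16 and 2099 to 2675 at 48 h over 24 h. For the effect at 24 h minus 3 h they were 0 to 1 and 30 to 109, and at 48 h minus 24 h 0 to 0 and 2 to 17.

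Of all gene values recomputed 1 changed direction with a call: Ddit4 in 5 µM over 1 µM at 48 h was at 0.25 without replicate 2 at 1 µM (edgeR adjusted p = 0.0426), against -0.01 with all libraries, and its lowest value was -0.0856 without replicate 5 at 1 µM. Of 13 calls for 5 µM over 1 µM at 48 h, 11 held under every alternative. In controls 20 of 24 calls held at 24 h over 3 h and 12 of 16 at 48 h over 24 h. With the Y-linked level in the fit, Chac1, Cth and Slc7a3 were lost at 24 h over 3 h. Cebpb, Eif4ebp1, Slc3a2 and Asns were lost at 48 h over 24 h. Mean Y-linked levels in controls were 80.3, 247 and 181 CPM at 3, 24 and 48 h.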
